A study of Mus musculus with 6 samples.

Results

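The transcripts of the Polycomb repressive complexes PRC1 and PRC2 were examined in mouse leukemic blasts. A fixed list of 33 subunit genes was taken by symbol, 21 of PRC1 and 12 of PRC2, out of the 53458 genes with deposited values. All 33 were found in the gene annotation, and all 33 passed the filter on low counts that left 20654 genes for testing. No subunit passed the test between Asxl1 genotypes, and the values below describe which subunits these blasts expressed, how closely the libraries agreed and how large a difference each estimate still allows.

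Polycomb complexes keep genes silent by marking histones. PRC1 places ubiquitin on histone H2A through the ligases Ring1 and Rnf2, and its PCGF subunit decides which form of the complex is assembled. PRC2 methylates histone H3 at the H3K27 residue through Ezh1 or Ezh2, which work only together with Eed and Suz12. In blood cells both complexes are known for restraining developmental genes and cell cycle inhibitors, and Asxl1 partners Bap1, the enzyme that takes the H2A ubiquitin off again.

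The libraries were made from blasts of the bone marrow of transplanted mice of the strain C57/BL6 with acute myeloid leukemia. All 6 carried the Cebpa-/p30 genotype, in which the myeloid factor C/EBPα is present only as its short p30 form and the other allele is null. In 3 libraries Asxl1 was wild type (Cebpa-/p30; Asxl1WT, called WT here), and in 3 libraries both Asxl1 alleles carried G643W (Cebpa-/p30; Asxl1G643W/G643W, called G643W here). Per the labels' protocols the cells were sorted as CD45.2+ with low Mac1 and Gr1 and negative for Ter119, B220 and CD3. No treatment, age or time point is given, and the labels do not say whether the libraries of a group come from separate leukemias, so a p-value here weighs the genotypes against the spread among single libraries, some of it possibly technical. In bulk RNA, fewer cells of a type and less RNA per cell cannot be told apart.

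Library totals lay between 61167075 and 101189225 estimated reads. On the TPM scale, which divides reads by transcript length, Asxl1 itself had 6.95, 3.68 and 7.15 with the WT genotype (libraries 1, 2 and 3, the order used throughout) and 13.7, 20.2 and 15.5 with G643W, which does not check the base change. Of the genes behind the sort, the T cell genes Cd3e and Cd3d reached 0.237 and 3.07 CPM, where CPM is the usual depth-scaled count, here after TMM scaling and not divided by length. Itgam (Mac1, sorted as low) ranged from 314 to 2213 CPM and Ly6g, of the Gr1 antigen, from 3.71 to 347 CPM, both highest in G643W library 2. The progenitor genes Kit (15 to 160 CPM) and Mpo (656 to 7188 CPM) were present in every library. Of the 10 genes in the blast and progenitor list, 1 was lower in every G643W library (8.89% of all genes tested were). That gene was Cd34, at 243, 394 and 146 CPM in WT and at 120, 29.5 and 62.3 CPM in G643W libraries. Neutrophil genes were also abundant, at a summed 1846 to 53651 CPM in WT and 10008 to 136789 CPM in G643W over 12 genes, none of which separated the groups. Genes of mitosis summed to 948 to 1563 CPM in WT and 2051 to 3225 CPM in G643W. Of these, 11 of 12 were higher in every G643W library than in every WT library, against 7.05% of all genes tested.

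Promoter sequences of 28 of the 33 subunits were matched in a RefSeq table (GRCm38.p6), while Pcgf1, Cbx2, Rybp, Yaf2 and Epop had no entry. The windows are the 250 bases before the annotated start nearest to the main protein-coding transcript, and they were CpG-rich, with a median of 21 CG pairs against 6 over all 32817 windows in the table. Shown here, 5′ to 3′, are Suz12, Phf19 and Phc3, whose CPM was higher in every G643W library than in every WT library, Phc2 and Pcgf3, whose CPM was lower in every one, and the catalytic pair Ezh2 and Ezh1. Stretches that overlap an exon of the same gene were left off, which shortened Phf19 to 200 bases, Pcgf3 to 223 bases and Ezh2 to 125 bases. Capitals mark matches on either strand to the E2F words TTTGGCGC, TTTCCCGC, TTTGCCGC and TTTCGCGC, to the E-box CACGTG or to the CCAAT box, and no match shown overlaps another.
Suz12 (chr11:79992856-79993105, plus strand): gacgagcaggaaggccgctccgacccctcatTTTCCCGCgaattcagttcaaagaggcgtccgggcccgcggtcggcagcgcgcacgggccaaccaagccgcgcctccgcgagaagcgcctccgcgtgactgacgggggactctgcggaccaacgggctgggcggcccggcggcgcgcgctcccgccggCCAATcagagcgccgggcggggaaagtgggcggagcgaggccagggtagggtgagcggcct
Phf19 (chr2:34914027-34914226, minus strand): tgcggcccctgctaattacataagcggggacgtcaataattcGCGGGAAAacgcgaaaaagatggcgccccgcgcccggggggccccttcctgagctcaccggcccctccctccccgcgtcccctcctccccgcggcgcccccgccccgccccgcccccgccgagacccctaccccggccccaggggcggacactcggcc
Phc3 (chr3:30969416-30969665, minus strand): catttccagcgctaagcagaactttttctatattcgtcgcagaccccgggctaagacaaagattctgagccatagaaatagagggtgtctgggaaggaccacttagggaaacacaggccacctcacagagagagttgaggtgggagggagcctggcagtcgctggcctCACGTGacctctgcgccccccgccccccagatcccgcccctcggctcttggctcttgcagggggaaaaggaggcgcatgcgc
Phc2 (chr4:128727321-128727570, plus strand): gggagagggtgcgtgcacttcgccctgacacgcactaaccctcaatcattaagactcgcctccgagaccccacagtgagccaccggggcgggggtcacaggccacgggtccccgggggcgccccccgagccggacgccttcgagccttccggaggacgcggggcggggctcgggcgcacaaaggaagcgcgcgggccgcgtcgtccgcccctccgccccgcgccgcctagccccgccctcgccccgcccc
Pcgf3 (chr5:108461009-108461231, plus strand): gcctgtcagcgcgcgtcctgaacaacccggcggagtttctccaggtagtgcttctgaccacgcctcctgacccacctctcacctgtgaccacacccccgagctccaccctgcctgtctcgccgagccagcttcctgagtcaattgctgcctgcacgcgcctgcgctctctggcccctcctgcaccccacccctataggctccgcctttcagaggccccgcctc
Ezh2 (chr6:47595059-47595183, minus strand): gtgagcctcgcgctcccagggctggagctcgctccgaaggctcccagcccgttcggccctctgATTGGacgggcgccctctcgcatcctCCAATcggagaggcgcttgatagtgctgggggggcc
Ezh1 (chr11:101226464-101226713, minus strand): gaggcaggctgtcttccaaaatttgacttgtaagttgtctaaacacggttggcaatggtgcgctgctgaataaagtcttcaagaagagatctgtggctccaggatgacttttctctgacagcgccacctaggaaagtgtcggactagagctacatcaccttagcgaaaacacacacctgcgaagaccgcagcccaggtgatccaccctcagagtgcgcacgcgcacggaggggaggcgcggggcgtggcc
An E2F word was found in 2 of the 28 subunit windows, Suz12 and Phf19 (7.14%, against 1.86% of all windows). CACGTG was in 7 (25.0%, against 6.02%), among them Phc3, and CCAAT was in 8 (28.6%, against 33.8%). The E2F words and CACGTG hold a CG pair, in which the subunit windows are rich, and CCAAT holds none. The part of base composition in these shares was not tested. Also among the 7 were Bmi1 and Bcorl1, whose windows lie 3354 and 2412 bases from the start of the main protein-coding transcript. Ezh2 had CCAAT 3 times in its full window and Ezh1 had none. These are letter matches and do not show that a factor binds there.

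Of the 20654 genes tested, 25 (0.121%) passed edgeR's quasi-likelihood test at an adjusted p under 0.05, and no subunit was among them (edgeR adjusted p from 0.498 to 0.991). At an unadjusted edgeR p under 0.05 there were 3 subunits, Phc2, Bmi1 and Epop, all lower in G643W. This was 9.09% of the subunits, against a background of 9.66% of all genes in either direction and 5.78% lower in G643W. DESeq2 also called none, while it called 1.62% of all genes, and it gave 1 subunit, Epop, at an unadjusted p under 0.05, against 6.13% of all genes in that fit.

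The spread sets what these estimates can show. The median size of the log2 difference was 0.38 for the subunits and 0.44 for all genes, and the median difference was -0.13 for the subunits and -0.01 for all genes. For 24 subunits the estimate lay within 0.5 log2 units of 0, and for 3 it was 1 or more (Pcgf2, Pcgf6 and Epop), of which Pcgf2 moved from -1.43 to -0.20 without WT library 3. The 21 PRC1 subunits had a median of -0.19 with 14 below 0, and the 12 PRC2 subunits had a median of 0.01 with 6 below 0. The groups did not overlap in CPM for 6 subunits (18.2%, against 15.9% of all genes). Phc3, Suz12 and Phf19 were higher in every G643W library (7.05% of all genes were), and Pcgf3, Phc2 and Epop were lower in every one (8.89% of all genes were). In GRCm38 these genes lie at chr3:30899371-30969415 (Phc3), chr11:79993106-80034123 (Suz12), chr2:34893757-34914026 (Phf19), chr5:108461232-108506976 (Pcgf3), chr4:128654702-128752881 (Phc2) and chr11:97627389-97629702 (Epop).

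**Figure D1:**
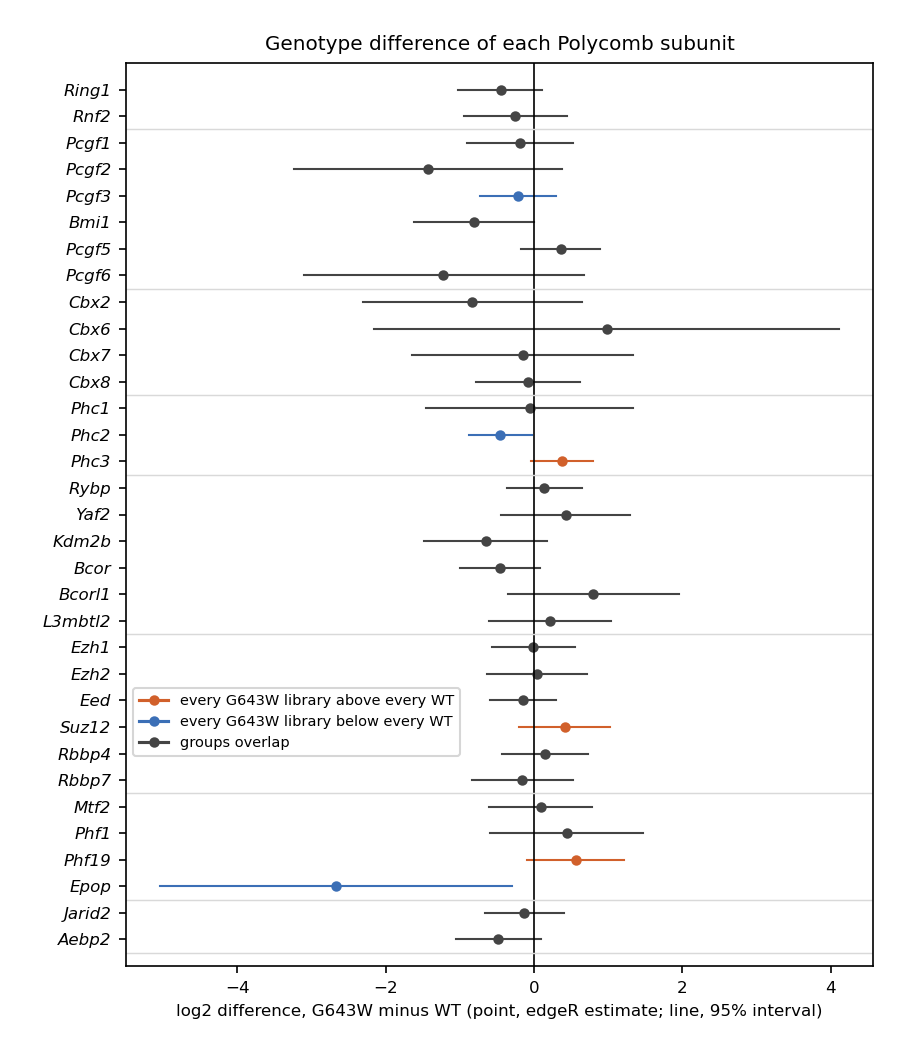
Log2 difference of G643W minus WT (x axis) for each of the 33 subunits (y axis, ordered by place in the complexes, grey lines between places), with the edgeR estimate as a point and its 95% interval as a line. The intervals of Epop, Phc2 and Bmi1 lie below 0, that of Bmi1 only just, and Cbx6 has a wide interval from -2.15 to 4.11.

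The ligases of PRC1 were both expressed. Ring1 was at 28.1, 27.4 and 20.6 CPM in WT and at 21.5, 17.5 and 16.5 CPM in G643W libraries. Only G643W library 1, just above WT library 3, kept the groups from separating in CPM, and on TPM (9.61 to 12.6 in WT and 5.59 to 8 in G643W) they did separate. However, 59.6% of the TPM of Ring1 lay outside protein-coding transcripts. Over protein-coding transcripts alone the groups overlapped (3.27 to 4.81 TPM in WT and 2.52 to 4.01 TPM in G643W). The log2 difference of Ring1 was -0.45 ± 0.24 (SE, edgeR adjusted p = 0.546). Rnf2, which supplies most of the ligase activity in many cell types, was at 44.8, 62.2 and 30.5 CPM in WT and at 46.1, 35.1 and 34.9 CPM in G643W libraries. The 3 G643W values of Rnf2 lay within the range of the WT values (log2 difference -0.25 ± 0.29, edgeR adjusted p = 0.751). On the length-scaled measure over protein-coding transcripts, Rnf2 (5.75 to 10.8 TPM) was above Ring1 (2.52 to 4.81 TPM) in all 6 libraries.

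The 6 PCGF subunits, of which each PRC1 holds one, ranged widely in level. Over protein-coding transcripts the mean of the 6 libraries was 21.4 TPM for Pcgf5, 11.1 TPM for Bmi1, 6.51 TPM for Pcgf1, 1.46 TPM for Pcgf3, 1.33 TPM for Pcgf6 and 0.0887 TPM for Pcgf2. The library ranges of Pcgf5 and Bmi1 overlapped (14.5 to 28.4 and 5.93 to 15.7 TPM), as did those of Pcgf3 and Pcgf6, while Pcgf2 lay below the other 5 in each of the 6 libraries. Bmi1, which builds canonical PRC1 and sustains self-renewal of blood stem cells, was at 33.6, 61 and 51.1 CPM in WT and at 39.7, 20.7 and 22.6 CPM in G643W libraries. G643W libraries 2 and 3 were below all the others and G643W library 1 lay between WT libraries 1 and 3. The fold of Bmi1 in G643W over WT was 0.570 with a 95% interval from 0.326 to 0.997 (log2 difference -0.81 ± 0.34, edgeR adjusted p = 0.511). Without a library, its log2 difference lay between -1.07 and -0.59.

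Pcgf3, a subunit of variant PRC1, was at 20.0, 21.9 and 19.4 CPM in WT and at 17.9, 15.5 and 19.2 CPM in G643W libraries. The gap between the groups was that between WT library 3 and G643W library 3, and the log2 difference was -0.22 ± 0.22 (edgeR adjusted p = 0.701). On TPM the groups of Pcgf3 overlapped and the sign turned (0.12 with limma on log2(TPM + 1)). Pcgf5, which takes the place of Pcgf3 in a related variant complex, ranged from 41.3 to 63.2 CPM in WT and from 57.6 to 68.5 CPM in G643W (log2 difference 0.36 ± 0.22, edgeR adjusted p = 0.583). Pcgf1, the PCGF of the Kdm2b and Bcor complex, had a log2 difference of -0.19 ± 0.30. Pcgf6, of the complex with L3mbtl2, ranged from 3.42 to 10.4 CPM in WT and from 0.764 to 6.07 CPM in G643W (-1.22 ± 0.80). Pcgf2, the near relative of Bmi1, had 13 to 128 estimated reads per library and 0.175 to 1.70 CPM, and 81.7% of its TPM lay outside protein-coding transcripts.

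The CBX subunits, whose chromodomain reads methylated H3K27 and brings canonical PRC1 to PRC2 targets, were among the least expressed. Cbx8 was the steadiest of the 4, from 9.46 to 15.8 CPM across all libraries, with a log2 difference of -0.08 ± 0.30. Cbx7 ranged from 7.84 to 15.9 CPM in WT and from 3.80 to 20.9 CPM in G643W (-0.15 ± 0.63), and Cbx2 from 1.36 to 4.53 CPM in WT and from 0.862 to 2.02 CPM in G643W (-0.84 ± 0.63, and -0.02 without WT library 3). Cbx6 stood out through 1 library. It was at 1.99, 6.40 and 13.1 CPM in WT and at 39.4, 1.44 and 1.56 CPM in G643W libraries. G643W library 1 was the highest of the 6 and the other G643W libraries the lowest. The log2 difference of Cbx6 was 0.98 ± 1.33 with all libraries and -2.17 without G643W library 1, so its direction rests on that library. In G643W library 1 most reads of Cbx6 fell on a single protein-coding transcript of 5806 bases, Cbx6-203, with 2474 of 2692 reads.

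The PHC subunits, which polymerise through their SAM domains and cluster canonical PRC1 on chromatin, held 2 of the 6 subunits without overlap, in opposite directions. Phc2 was at 71.5, 64.7 and 56.6 CPM in WT and at 47.6, 45.3 and 47.7 CPM in G643W libraries. The 3 G643W values were close together and all under the lowest WT value. The fold was 0.729 with a 95% interval from 0.543 to 0.978 (log2 difference -0.46 ± 0.18, edgeR adjusted p = 0.503). Phc3 was at 38.6, 47.1 and 41.1 CPM in WT and at 53.8, 53.7 and 57.2 CPM in G643W libraries. Here all 3 G643W values exceeded the highest WT value (log2 difference 0.38 ± 0.18, edgeR adjusted p = 0.534). Both separations also held on TPM. Without a library, Phc2 lay between -0.48 and -0.38 and Phc3 between 0.31 and 0.50, and neither changed sign under any alternative. Phc2 remained the main PHC transcript, with 72.3 to 77.6% of the summed PHC TPM in WT and 61.3 to 69.6% in G643W libraries, and Phc3 had 14.4 to 18.2% and 24.1 to 26.6%. Phc1 differed more within groups than between them, at 12.3, 14.4 and 4.58 CPM in WT and at 13.9, 12.1 and 4.03 CPM in G643W libraries.

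**Figure D2:**
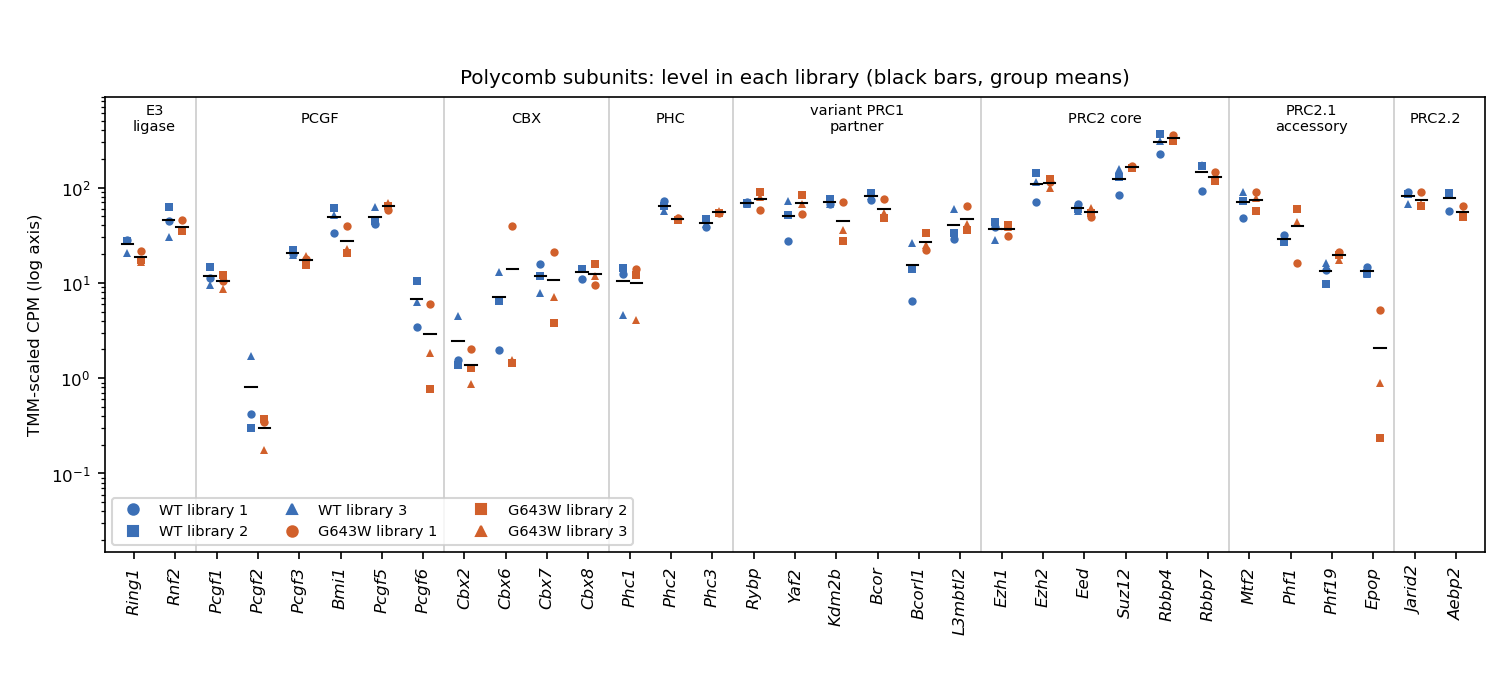
TMM-scaled CPM on a log axis for each subunit in each library, WT in blue and G643W in orange, with circles, squares and triangles for libraries 1, 2 and 3 and black bars for group means, ordered by place in the complexes. Rbbp4 is the highest (224 to 361 CPM) and Pcgf2 the lowest (0.175 to 1.70 CPM), and Epop spreads over the widest range, from 0.236 to 14.6 CPM.

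The partners of variant PRC1 overlapped between genotypes without exception. Rybp, which stimulates the ligase and binds ubiquitinated H2A, ranged from 67.5 to 69.8 CPM in WT and from 58.8 to 89.4 CPM in G643W (log2 difference 0.14 ± 0.21). Yaf2, its paralog, ranged from 27.6 to 72.5 CPM in WT and from 53.1 to 83.1 CPM in G643W (0.43 ± 0.37). Kdm2b, which brings a variant complex to unmethylated CpG islands, was at 67.9, 75.2 and 66.9 CPM in WT and at 70.4, 27.6 and 35.8 CPM in G643W libraries. G643W library 1 lay within the WT range and G643W libraries 2 and 3 lay below every other library (log2 difference -0.65 ± 0.35, edgeR adjusted p = 0.556). The processed pseudogene Gm12397 is identical to Kdm2b over 615 bases and carried 13.4% as many reads, so that division is uncertain. Bcor and Bcorl1, corepressors of the Kdm2b complex, pointed in opposite directions. Bcor ranged from 74.8 to 88.7 CPM in WT and from 48.4 to 76.1 CPM in G643W (-0.46 ± 0.23), and Bcorl1 from 6.43 to 26.0 CPM in WT and from 22.3 to 33.6 CPM in G643W (0.80 ± 0.49). L3mbtl2, a reader of histone methylation, had 0.22 ± 0.35.

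The PRC2 core genes had the highest summed level of the 8 places in the complexes, and none of the 6 passed the test. Summed over its 6 genes, protein-coding transcripts reached 116, 164 and 173 TPM with WT Asxl1 and 179, 139 and 165 TPM with G643W. Ezh2, the methyltransferase of dividing cells, was at 70.9, 143 and 113 CPM in WT and at 113, 123 and 99.2 CPM in G643W libraries. The G643W values lay within the WT range, whose low end was WT library 1. The fold of Ezh2 in G643W over WT was 1.03 with a 95% interval from 0.646 to 1.63 (log2 difference 0.04 ± 0.28, edgeR adjusted p = 0.964). Ezh1, the methyltransferase that prevails in resting cells, was at 38.6, 43.4 and 28.1 CPM in WT and at 30.8, 40.4 and 38.2 CPM in G643W libraries. Its groups overlapped almost fully (fold 0.994, interval from 0.676 to 1.46, edgeR adjusted p = 0.991). Eed, which binds methylated H3K27 and activates the enzyme, was at 67.4, 59.0 and 56.2 CPM in WT and at 49.6, 53.7 and 61.5 CPM in G643W libraries. WT library 1 was the highest and G643W library 1 the lowest, and the groups overlapped (fold 0.903, interval from 0.666 to 1.22, edgeR adjusted p = 0.763).

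Suz12, the scaffold on which PRC2 and its accessory proteins assemble, was the core subunit without overlap. It was at 83.8, 128 and 156 CPM in WT and at 168, 161 and 161 CPM in G643W libraries. The 3 G643W libraries were nearly equal while WT spread from the lowest to just under them. The means were 122 ± 36.3 CPM in WT and 163 ± 3.86 CPM in G643W (SD, n = 3 each), with a log2 difference of 0.42 ± 0.26 (edgeR adjusted p = 0.579). On TPM the groups overlapped, since G643W library 2 (43.1 TPM) lay below WT library 3 (44.3 TPM). Without WT library 1 the log2 difference of Suz12 was 0.20. With the mean of the mitosis genes as a covariate it was 0.04, and genotype and mitosis genes cannot be told apart here because the 2 groups do not overlap in the mitosis sum. The histone-binding subunits Rbbp4 and Rbbp7, which other chromatin complexes also use, had log2 differences of 0.15 ± 0.25 and -0.16 ± 0.29.

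PRC2.1 is PRC2 with a Polycomb-like protein (Mtf2, Phf1 or Phf19), which brings it to CpG islands, and with Epop as a further partner. By TPM over all transcripts Mtf2 was the main one in every library, with 50.5 to 74.4% of the summed TPM of the 4 genes. In G643W library 2, Phf1 was above Mtf2 over protein-coding transcripts (10.2 against 9.01 TPM) and in CPM (59.3 against 57.3). Mtf2 had a log2 difference of 0.09 ± 0.29. The gene overlaps Tmed5 on the other strand by 2639 bases, and Phf1 overlaps Cuta by 4090 bases, with 99.8 and 130% as many reads as the subunit, and whether reads were assigned by strand is not stated in the labels. Phf1 ranged from 26.9 to 31.7 CPM in WT and from 16.2 to 59.3 CPM in G643W (0.44 ± 0.44). Phf19 was at 13.6, 9.70 and 16.2 CPM in WT and at 20.9, 19.8 and 17.4 CPM in G643W libraries. Every G643W library was above every WT library (log2 difference 0.56 ± 0.28, edgeR adjusted p = 0.538), but on TPM G643W library 3 (5.30 TPM) was under WT library 3 (5.39 TPM).

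Epop, which links PRC2 to elongin BC and limits its activity at its targets, had the largest difference of the 33 subunits. It was at 14.6, 12.8 and 12.4 CPM in WT and at 5.16, 0.236 and 0.889 CPM in G643W libraries. The WT libraries were nearly equal and all G643W libraries were lower, by a widely varying amount. In estimated reads this was 1114, 904 and 935 in WT and 353, 21 and 66 in G643W libraries. The fold of Epop was 0.158, with a 95% interval from 0.0303 to 0.818 (log2 difference -2.67 ± 1.01, edgeR adjusted p = 0.498). Over all alternatives its adjusted p ran from 0.0721 with DESeq2 to 1.0 with the mitosis covariate, under which the log2 difference was -0.33. Without G643W library 1 the log2 difference was -4.49 (edgeR adjusted p = 0.0899). With the neutrophil covariate it was -2.73.

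Genes beside Epop on chromosome 11 were read after its values had been seen, so they are a description. Within 100 kb, 8 other genes were tested. Of these, 7 had a log2 difference below 0, against 10486 of all 20654 genes tested. In 5 of the 8 every G643W library was below every WT library, against 8.89% of all genes. None passed the test. Mllt6, a chromatin reader known as a fusion partner in leukemia and 33.7 kb from Epop, was at 26.4, 15.9 and 8.98 CPM in WT and at 6.94, 2.06 and 3.05 CPM in G643W libraries. Its groups did not overlap (log2 difference -2.09 ± 0.595, edgeR adjusted p = 0.454). Cisd3, a mitochondrial iron-sulfur protein gene next to Mllt6, had -1.66 ± 0.70, Gm11613 had -1.20 ± 0.42, Pip4k2b had -0.48 ± 0.18 and Psmb3 had -0.21 ± 0.17. Pcgf2, itself a PRC1 subunit, lies 59.1 kb from Epop, and its groups overlapped.

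**Figure D3:**
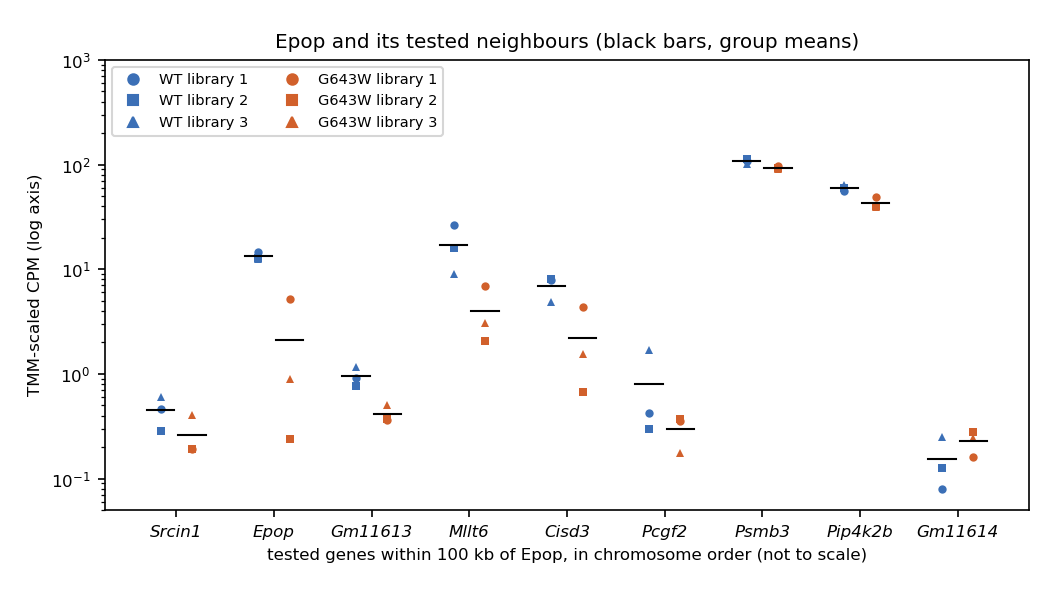
TMM-scaled CPM on a log axis for Epop and the 8 tested genes within 100 kb of it (x axis, in chromosome order and not to scale), WT in blue and G643W in orange, with circles, squares and triangles for libraries 1, 2 and 3 and black bars for group means. Mllt6 and Cisd3 are lower in each G643W library, and Psmb3 and Pip4k2b, at higher levels, are lower by less.

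PRC2.2 carries Jarid2 and Aebp2, which help it to read ubiquitinated H2A. Jarid2 ranged from 66.5 to 90.3 CPM in WT and from 63.9 to 90.1 CPM in G643W (log2 difference -0.13 ± 0.22). Aebp2 ranged from 56.9 to 88.2 CPM in WT and from 49.1 to 64.6 CPM in G643W (-0.48 ± 0.24, edgeR adjusted p = 0.539). Length scaling moved Jarid2 the other way (0.46 with length-scaled counts). A protein-coding transcript of 344 bases, Jarid2-213, was at 9.54 TPM in G643W library 1, 6.97 TPM in G643W library 3 and 3.85 TPM in WT library 2, from 124, 101 and 62 estimated reads, and at 0 in the other libraries.

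Subunits that take the same place were compared as ratios of TPM within a library, for 8 pairs. Ezh1 was at 0.0714 to 0.148 of the TPM of Ezh2 in WT and at 0.0839 to 0.127 in G643W libraries, so Ezh2 transcripts prevailed in all 6. Over protein-coding transcripts alone the ratio was higher, at 0.137 to 0.305 in WT and 0.138 to 0.212 in G643W libraries. Of the 8 ratios of TPM, that of Mtf2 to Phf19 separated the groups and the other 7 did not. Mtf2 to Phf19 was at 5.91, 5.61 and 5.06 in WT and at 4.67, 2.72 and 4.40 in G643W libraries. Its difference in mean log2 ratio was -0.53 (two-sided exact permutation p = 0.1, the smallest that 3 against 3 can give, adjusted p = 0.8 over the 8 ratios). As a ratio of CPM the difference was -0.47 (two-sided exact permutation p = 0.3), and the groups overlapped. Bcor to Bcorl1 went from 14.3, 8.14 and 2.96 in WT to 3.86, 1.34 and 3.75 in G643W libraries, which overlapped. Ring1 to Rnf2 was at 0.993, 0.708 and 0.986 in WT and at 0.586, 0.768 and 0.564 in G643W libraries, and overlapped through WT library 2 and G643W library 2. The exact permutation p of the 7 ratios that overlapped on TPM lay between 0.2 and 0.9.

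**Figure D4:**
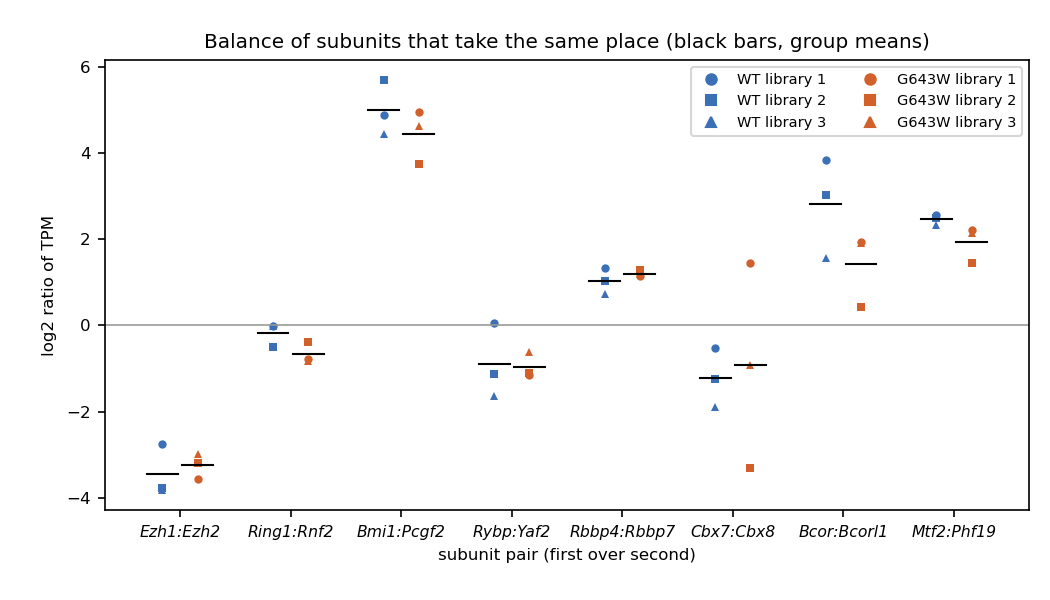
Log2 ratio of TPM (y axis) for 8 pairs of subunits that take the same place (x axis, first over second), with one point per library, WT in blue and G643W in orange, circles, squares and triangles for libraries 1, 2 and 3, and black bars for group means. Mtf2:Phf19 is the pair whose groups separate, though not as a ratio of CPM. Ezh1:Ezh2 is below 0 in every library, and Cbx7:Cbx8 spreads from -3.30 to 1.44 within G643W.

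Some libraries stood apart within their genotype for many subunits. G643W libraries 2 and 3 were both below the other 4 libraries for 10 of the 33 subunits, against 20.1% of all genes: Ring1, Bmi1, Pcgf6, Cbx2, Cbx6, Cbx7, Kdm2b, Bcor, Epop and Aebp2. WT library 1 was the lowest for another 10, against 18.1% of all genes: Pcgf5, Phc3, Yaf2, Bcorl1, L3mbtl2, Ezh2, Suz12, Rbbp4, Rbbp7 and Mtf2. The former 10 held 8 PRC1 subunits, and the latter 10 held 5 of each complex. Of all 33 subunits, 21 are of PRC1 and 12 of PRC2. Whether either pattern divides by complex was not tested. Levels of other programs also differed between these libraries. The summed neutrophil genes were at 1846, 9948 and 53651 CPM in WT and at 10008, 136789 and 74862 CPM in G643W libraries, the 2 highest being G643W libraries 2 and 3. The summed S phase genes were lowest in WT library 1 (1249 CPM) and lay between 1726 and 2611 CPM in the others. Summed progenitor genes were also lowest in WT library 1 (3488 CPM) and G643W library 2 (4731 CPM), against 7682 to 13236 CPM in the others. The part of these programs in the subunit values was examined only through the neutrophil and mitosis covariates. No subunit was called with either covariate, but none was called without them, so the calls do not measure that part. With the mitosis covariate no gene at all was called.

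**Figure D5:**
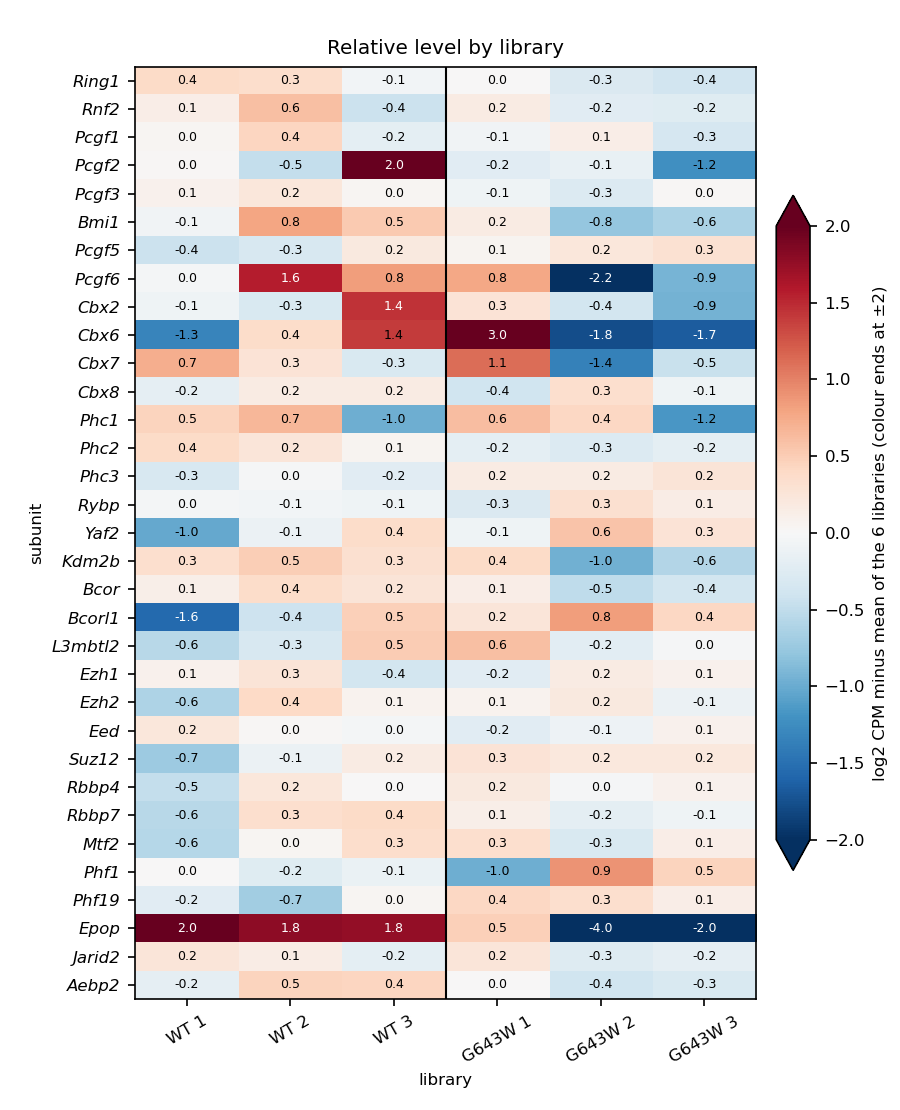
Log2 CPM of each subunit (rows) in each library (columns) minus its mean over the 6 libraries, printed in each cell and coloured from blue (lower) to red (higher) with the colour ending at 2 in either direction. G643W libraries 2 and 3 are blue for Bmi1, Kdm2b, Bcor and Epop, and WT library 1 is blue for Suz12, Ezh2 and Bcorl1.

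Further marker lists were read in the same way. Monocyte genes summed to 4183 to 4871 CPM in WT and 2759 to 3708 CPM in G643W, and dendritic cell genes to 60.0 to 161 and 22.9 to 33.8 CPM, both without overlap in the sum, with 3 of 7 genes lower without overlap in either list. Stromal and endothelial genes summed to 106 to 194 CPM in WT and 61.8 to 105 CPM in G643W, without overlap and most of it from Pecam1, an endothelial and myeloid surface protein; 1 of the 7 genes was lower without overlap. Erythroid genes summed to 1.76 to 2.21 CPM in WT and 2.98 to 9.57 CPM in G643W (3 of 7 higher without overlap), and T cell genes to 1.67 to 8.85 and 8.77 to 15.5 CPM (1 of 7). B cell genes summed to 34.7 to 38.7 and 23.3 to 36.1 CPM (1 of 6 higher without overlap), most of it from Cd79b. Among all genes tested, 7.05% were higher and 8.89% were lower in G643W without overlap. No gene of these lists was at 0 in all 6 libraries. Whether any of these moved the subunits was not tested.

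How the reads of a subunit fell on its transcripts changes the TPM values. Outside protein-coding transcripts lay 75.0% of the TPM of Rbbp4, 69.7% of Eed, 64.3% of Ezh2, 64.2% of Kdm2b and 57.3% of Suz12. For Rbbp4 this was a processed transcript of 722 bases, Rbbp4-203, at 74.7 to 112 TPM beside 23.1 to 39.8 TPM for the leading coding transcript, which had more reads. For Ezh2 a retained intron of 500 bases, Ezh2-213, was at 14 to 31.4 TPM beside 5.22 to 8.82 TPM for the coding transcript with the most reads. For Eed the transcript with the most reads was a retained intron of 703 bases, Eed-207, at 15.5 to 20.4 TPM. Its share of Eed was nearly constant, from 25.3 to 26.8% of TPM over the 6 libraries. For Cbx7 in G643W library 1, a retained intron of 148 bases, Cbx7-209, held 4.38 of 6.99 TPM from 3.6 estimated reads. The ratio of Cbx7 to Cbx8 in that library was 2.72 over all transcripts and 1.87 over protein-coding transcripts. Rnf2, Cbx7 and Kdm2b overlap the expressed genes Trmt1l (158 bases), Apobec3 (100 bases) and Rnf34 (627 bases) on the opposite strand, so reads in those stretches could belong to either gene.

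The share of TPM in the transcript with the most reads was compared for the 30 subunits in which it could vary. The groups separated for 1 of them, Bcor, against 15.3% of all genes with a share. Bcor-201, of 6113 bases, held 48.6, 51.4 and 51.1% of the TPM of Bcor in WT and 44.3, 42.1 and 31.8% in G643W libraries. All 3 G643W shares were lower (difference of means -10.9 percentage points, two-sided exact permutation p = 0.1, adjusted p = 0.545 over the subunits).

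Further genes around the complexes were read in the same fit. Of 28 accessory and antagonist genes, 27 were tested and none was called. At an unadjusted edgeR p under 0.05 there were 3 (Lcor, Hdac1 and Csnk2a1), all with a difference above 0, of which Lcor is named after its values were seen, and 6 genes did not overlap (22.2%, against 15.9%). Those higher in every G643W library included the deacetylase Hdac1 (mean 90.9 CPM in WT and 131 CPM in G643W) and the casein kinase subunit Csnk2a1 (70.6 to 99.9 CPM in WT and 106 to 128 CPM in G643W). Lower in every one were Csnk2a2 (means of 48.6 and 42.4 CPM), Mbtd1 (64.5 and 42.7 CPM) and Usp16, a deubiquitinase of H2A (40.7 and 29.3 CPM). On TPM the groups of Csnk2a2, Mbtd1 and Usp16 overlapped, while those of Hdac1 and Csnk2a1 stayed apart. Outside protein-coding transcripts lay 89.6% of the TPM of Usp16. Over protein-coding transcripts its means were 3.12 TPM in WT and 3.19 TPM in G643W. The median log2 difference of the 27 was -0.07.

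Genes widely known as Polycomb targets were mostly silent in both genotypes. Of 28 such genes, 11 had enough reads to be tested and none of the 11 was called or separated the groups (median log2 difference 0.01). A mean of at most 1 CPM in both groups was found for 22 of the 28. The lowest p values belonged to 3 cell cycle inhibitors. Cdkn1c was at 0.289, 0.340 and 2.14 CPM in WT and at 9.02, 1.37 and 1.97 CPM in G643W libraries (log2 difference 2.16 ± 1.07, edgeR adjusted p = 0.538). Cdkn2a was at 15, 5.65 and 6.77 CPM in WT and at 3.58, 6.84 and 5.09 CPM in G643W libraries (-0.82 ± 0.48, edgeR adjusted p = 0.567), and Cdkn2b stayed under 1 CPM in all libraries (0.73 ± 0.58). The groups of all 3 overlapped. Without WT library 1 the Cdkn2a difference was -0.27, and that of Cdkn1c was 0.92 without G643W library 1 and 3.72 without WT library 3.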

How the data were processed

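The authors quantified the reads with Salmon 0.12.0 after bcl2fastq, with mm10 and GRCm38.p6 named as builds, per the submitters' processing notes. The deposited tables give, per the file headers, an estimated count and a TPM value for each of 136288 transcripts in each library. Not given in the sources used here are Salmon's options, its index and the use of strand.

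Transcripts were joined to genes with GENCODE M21, which matched 136176 of them. The estimated counts of the 53458 genes were summed, rounded and tested with edgeR 4.0.16 in R 4.3.3 (quasi-likelihood, filterByExpr at a minimum count of 10, TMM, Benjamini-Hochberg over 20654 genes, threshold 0.05). The SE is the size of the log2 difference over the square root of F, intervals are 95% intervals, and the biological coefficient of variation was 52.8%. CPM is TMM-scaled. Leading transcript shares and ratios were tested by exact permutation, two-sided (scipy 1.17.1). BLAST+ 2.17.0 searched for near-identical copies (at least 95% identity over 50% of a transcript or copy). Alternatives were other scaling, filters and gene or transcript sets, length-scaled counts, DESeq2 1.42.0, limma 3.58.1 on log2(TPM + 1) and log2(TPM + 0.1), a replicate block, neutrophil and mitosis covariates, and leaving out each library. The fit was also run on counts simulated with the spread estimated from these data, and the outcome is not reported here.

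The members, the accessory and target lists and the marker lists were chosen with earlier results of these data known. All 33 subunits are named. Values in every library are given where the groups did not overlap in CPM, where the unadjusted p was under 0.05, and for Ring1, Rnf2, Ezh1, Ezh2, Eed and Suz12. The other subunits given in every library (Cbx6, Kdm2b, Phc1) were chosen after their values were seen. From the accessory and target lists, genes without overlap were named, or else the 3 with the lowest p; some genes of the accessory and marker lists are not reported here.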

Additional observations from a re-analysis of the deposited data

How the results depend on the processing

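No subunit was called under any alternative, and 14 subunits kept their direction under all of them: Ring1, Pcgf2, Bmi1, Pcgf5, Pcgf6, Cbx2, Phc2, Phc3, Bcor, L3mbtl2, Suz12, Phf19, Epop and Aebp2. The other 19 changed sign at least once, in 72 of 626 values of all 33. These log2 differences of G643W minus WT were, by alternative, as follows, and the cause was not tested. DESeq2's size factors in edgeR gave Ezh1 0.01, and no scaling gave Ezh2 -0.00018. The filter of CPM 1 in 3 libraries gave Cbx8 0.01, Phc1 0.02 and Ezh1 0.08. Length-scaled counts gave Pcgf3 0.08, Cbx7 1.03, Cbx8 0.21, Phc1 0.03, Ezh1 0.32 and Jarid2 0.46. DESeq2 gave Ezh1 0.01. limma on log2(TPM + 1) gave Pcgf3 0.12, Cbx7 0.48, Cbx8 0.15, Phc1 0.04, Ezh1 0.30, Eed 0.03 and Jarid2 0.44. On log2(TPM + 0.1) it gave Pcgf3 0.16, Cbx6 -0.47, Cbx7 0.51, Cbx8 0.19, Phc1 0.04, Ezh1 0.35, Eed 0.03, Rbbp7 0.00046 and Jarid2 0.46. The neutrophil covariate gave Cbx7 0.25, Phc1 0.39, Rybp -0.01, Ezh2 -0.04, Phf1 -0.15 and Jarid2 0.06. The mitosis covariate gave Cbx7 1.54, Rybp -0.27, Yaf2 -0.68, Kdm2b 0.08, Bcorl1 -0.37, Ezh2 -0.82, Rbbp4 -0.23, Phf1 -0.65 and Jarid2 0.24. Protein-coding genes alone gave Cbx8 0.02, Phc1 0.03 and Ezh1 0.08, and protein-coding transcripts alone gave Phc1 0.13 and Ezh1 0.05. Without each library in turn the ranges were -0.41 to 0.07 for Rnf2, -0.31 to 0.05 for Pcgf1, -2.17 to 1.76 for Cbx6, -1.04 to 0.25 for Cbx7, -0.30 to 0.17 for Cbx8, -0.35 to 0.32 for Phc1, -0.09 to 0.19 for Ezh1, -0.20 to 0.32 for Ezh2, -0.24 to 0.0048 for Eed, -0.03 to 0.34 for Rbbp4, -0.41 to 0.06 for Rbbp7 and -0.13 to 0.38 for Mtf2.

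Pcgf2 had no value under the CPM filter. The mean log2 ratio of Ezh1 to Ezh2 differed by -0.14 on protein-coding transcripts and -0.08 on CPM, that of Bmi1 to Pcgf2 by 1.76 and 0.24, and that of Cbx7 to Cbx8 by -0.30 and -0.35. Without each library in turn Cbx7 to Cbx8 ran from -0.89 (without G643W library 1) to 1.48 and Rybp to Yaf2 from -0.42 to 0.42. Leading transcripts without overlap numbered 4 on protein-coding transcripts (14.8% of all genes) and 3 to 8 without a library (22.5 to 28.4% of all genes). Subunits at an unadjusted p under 0.05 numbered 0 to 8 over all alternatives, with 8 without G643W library 1 (20.9% of all genes in that fit), 5 without WT library 3 (14.4%) and 0 without WT library 2 (5.74%), without G643W library 3 (4.8%) or with the mitosis covariate (3.21%). Same-numbered libraries had deviations correlated at 0.112, -0.165 and 0.176, and differently numbered ones at -0.284 to 0.228. These deviations are from means of only 3 libraries, so they cannot decide whether the numbers pair libraries. With a replicate block no subunit was called, nor was any other gene, 1 subunit was at an unadjusted p under 0.05 (8.58% of all genes), and Cbx6 was at -1.06 and Ezh1 at 0.01. With 3 libraries a group and a median SE of 0.29, folds as small as those of Suz12 or Phc3 could not be told from no difference.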
